A study of Mus musculus with 8 samples.

Results

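The 35 genes described here encode the chaperones, folding enzymes, degradation machinery and stress sensors of the endoplasmic reticulum (ER). They were chosen by gene symbol from a fixed list, drawn up with earlier results of these data known. All 35 were found among the 55487 genes of the count table, and all 35 passed the filter that left 13312 genes for testing. By function, 21 act in protein folding, 10 in ER-associated degradation and 4 as sensors or transducers of the unfolded protein response. Poly(A) RNA of whole liver was sequenced, from male mice of the strain C57BL/6J aged about 10 weeks. The sorbate group (4 libraries) had received 17 mg of potassium sorbate, a food preservative, by oral gavage 4 hours earlier, and the control group (4 libraries) had received water by gavage. Levels are given as CPM (counts scaled to library size after TMM), and fold changes as log2 of sorbate over control.

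Proteins made for secretion or for membranes enter the ER unfolded. There they meet the Hsp70 chaperone BiP (Hspa5) and its helpers, the lectins calreticulin and calnexin, and protein disulfide isomerases. Chains that fail to fold are sent back to the cytosol for destruction. When unfolded chains accumulate, the sensors IRE1 (Ern1), ATF6 and PERK (Eif2ak3) start the unfolded protein response, in which spliced XBP1 and cleaved ATF6 raise transcription of the chaperone genes. Hepatocytes secrete most plasma proteins and carry an extensive ER.

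Of the 35 genes, those that fell in sorbate-treated livers were mostly folding genes, and the difference between the arms was not tested. Of the 35 genes 11 fell with sorbate and 0 rose (edgeR's quasi-likelihood test, Benjamini-Hochberg adjusted p under 0.05), against 6.3% lower and 6.14% higher among all genes tested. At an unadjusted p under 0.05, 20 were lower and 0 higher, against 15.3% lower and 14.2% higher among all genes, and DESeq2 and limma-voom with quality weights also called 0 higher. By arm, 9 of the 21 folding genes, 2 of the 10 degradation genes and 0 of the 4 sensor genes fell. The median log2 fold change was −0.49 for folding, −0.11 for degradation and −0.08 for sensor genes, and −0.02 for all genes tested. In 11 of the 35 genes every sorbate library lay below every control library, which held for 8.32% of all genes tested. These are not the same 11 genes as those that fell. Hsp90b1, Dnajc3, Canx and Pdia3 had no overlap but did not pass the test. Hspa5, Creld2, Pdia5 and Syvn1 fell although their groups overlapped. In 0 of the 35 every sorbate library lay above every control library, against 9.42% of all genes. The 35 genes were chosen with earlier results of these data known, so these contrasts with all genes are not independent support. In bulk liver, fewer cells of a type and less RNA per cell cannot be told apart.

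**Figure D1:**
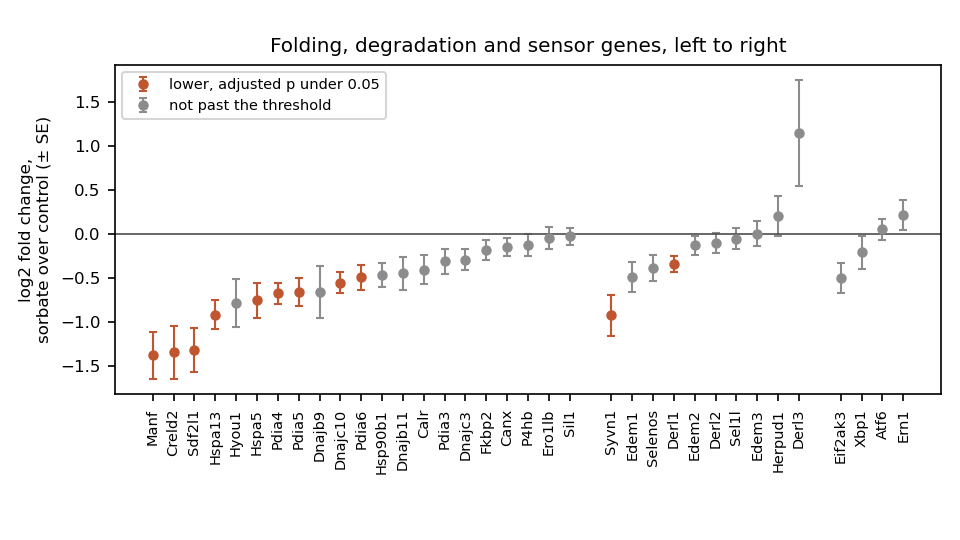
Log2 fold change of sorbate over control with its standard error for each of the 35 genes, ordered within folding, degradation and sensor genes. Orange points are the 11 genes past the adjusted p threshold of 0.05, which are 9 folding and 2 degradation genes, all below 0.

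The libraries were sequenced to between 15773932 and 25844731 counts. Control 2 was the lowest control for 23 of the 35 genes, and sorbate 2 was the lowest sorbate library for equally many, 23. Mean log2 CPM over the 21 folding genes was 6.91, 6.52, 6.67 and 6.805 in sorbate 1 to 4, and 7.32, 6.97, 7.35 and 7.48 in control 1 to 4, so that control 2 was the control nearest the sorbate libraries. Sorbate 2 was the lowest of all 8 libraries for 21 of the 35 genes. Without control 2 the test called 14 folding, 4 degradation and 1 sensor gene lower and 0 members higher, while 1915 of 13559 genes were called lower over the whole table. Leaving out any other library lowered the count of 11 members to between 4 (without sorbate 3 or control 3) and 9 (without sorbate 1), with 5 without sorbate 2, sorbate 4 or control 4 and 6 without control 1. Over all genes 2.64% (without control 3) to 4.23% (without sorbate 2) were then called lower. With 1 surrogate variable as a covariate, 4 members and 293 genes in all were called lower. With scaling by library size alone 9 members were called lower and 0 higher, while the calls over all genes shifted from 49.4% to 70.3% higher and the median of all genes from −0.02 to 0.11. All 21 folding genes lay below that shifted median.

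**Figure D2:**
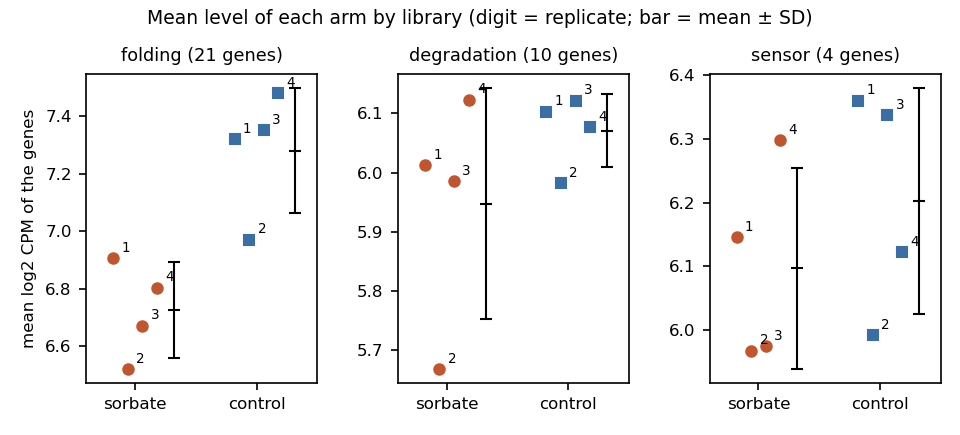
Mean log2 CPM of the folding, degradation and sensor genes in each of the 4 sorbate and 4 control libraries, with mean ± SD per group at the right of each set. The folding genes run from 6.52 to 6.91 in the sorbate libraries and from 6.97 to 7.48 in the controls without overlap, while both other sets overlap.

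The promoters of these genes are shown because many carry the ER stress response element (ERSE), which ATF6 and the factor NF-Y bind together. Promoter windows of RefSeq (GRCm38.p6), from 250 bases before to 50 after the transcription start, were matched for 29 of the 35 genes, Ero1lb through its current symbol Ero1b. Hyou1, Hspa13, Sil1, Manf, Derl1 and Atf6 had no window there. The motif searched was CCAAT, then 9 bases of any kind, then CCACG, on both strands. An exact match stood in 10 of the 29 genes, against 37 of the 27025 genes of the whole promoter table (0.137%), of which these 10 are a part. The element is known from genes of this response, which is why these promoters were searched. The contrast with all genes is therefore not independent support. By arm it stood in 8 of 17 folding genes, 2 of 9 degradation genes and 0 of 3 sensor genes with a window. It stood in 4 of the 8 genes that fell and have a window, and in 6 of the 21 that did not pass the test. The 11 sites follow, read along the strand that carries the motif, with its fixed letters in capitals.
Hspa5: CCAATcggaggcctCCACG
Hsp90b1 (distal): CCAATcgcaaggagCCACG
Hsp90b1 (proximal): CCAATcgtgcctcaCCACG
Creld2: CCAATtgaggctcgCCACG
Dnajc3: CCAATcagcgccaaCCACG
Calr: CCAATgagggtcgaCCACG
Canx: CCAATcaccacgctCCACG
Pdia6: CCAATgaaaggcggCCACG
Ero1lb: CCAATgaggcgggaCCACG
Syvn1: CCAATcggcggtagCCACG
Derl3: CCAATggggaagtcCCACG

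Distances are counted from the RefSeq start. Of these sites the one of Syvn1 begins 44 bases before that start (chr19:6046532-6046550) and that of Hspa5 65 bases before it (chr2:34772025-34772043). GENCODE places the start of Hspa5 further upstream, so that this site lies inside the GENCODE coordinates of the gene (34771970 to 34777547). The sites of Creld2, Calr, Ero1lb and Derl3 and the proximal one of Hsp90b1 lie on the antisense strand. A related element, ERSE-II, was searched as ATTGG, 1 base of any kind and CCACG. It stood in Herpud1 (ATTGGgCCACG, 52 bases before the start) and in Dnajb11, against 12 of the 27025 genes (0.0444%). ERSE-II too is known from genes of this response, so that contrast is likewise not independent support. The core of the UPRE, an element of XBP1 and ATF6, was searched as TGACGTG and stood in Hspa5 alone of the 29 genes, against 2.22% of all genes. The motifs do not overlap in these windows. The whole windows of Hspa5, which fell, and of Herpud1, which did not pass the test, show both kinds of element, with matched motifs in capitals (chr2:34771840-34772139 and chr8:94386179-94386478, both on the plus strand).
Hspa5: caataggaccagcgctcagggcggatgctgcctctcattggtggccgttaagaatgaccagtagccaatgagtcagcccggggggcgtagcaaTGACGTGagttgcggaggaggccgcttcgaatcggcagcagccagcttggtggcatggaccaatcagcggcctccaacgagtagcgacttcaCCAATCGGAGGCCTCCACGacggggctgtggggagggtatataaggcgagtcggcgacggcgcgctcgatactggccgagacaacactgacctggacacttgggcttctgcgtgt
Herpud1: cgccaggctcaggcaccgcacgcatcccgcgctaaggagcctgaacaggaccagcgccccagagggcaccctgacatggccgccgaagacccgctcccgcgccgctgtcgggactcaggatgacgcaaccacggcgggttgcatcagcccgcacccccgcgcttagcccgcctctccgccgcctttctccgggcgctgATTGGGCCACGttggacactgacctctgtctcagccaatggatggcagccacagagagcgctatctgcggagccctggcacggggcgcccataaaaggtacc
A match is a string of letters in a window, and binding was not measured in these livers.

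**Figure D3:**
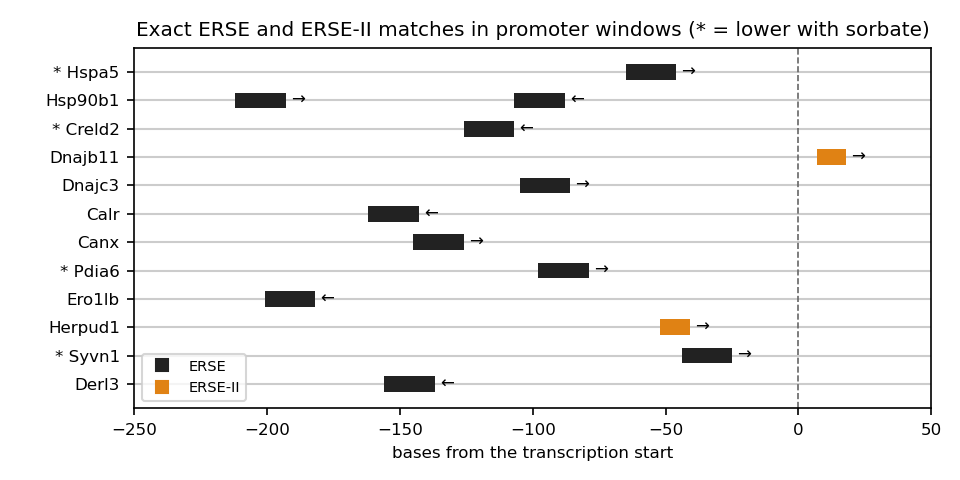
Exact ERSE (black) and ERSE-II (orange) matches by distance from the RefSeq transcription start, in bases, for the 12 genes that hold one. Arrows give the strand, right for sense, asterisks mark genes that fell with sorbate, and the ERSE sites of Syvn1 and Hspa5, 44 and 65 bases before the start, lie nearest to it among the ERSE sites.

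Among the Hsp70-type chaperones and their partners 5 of 8 fell. BiP itself, Hspa5 (ENSMUSG00000026864, chromosome 2, 34771970 to 34777547 on GRCm38), stood at 729.8, 488, 518 and 589 CPM in sorbate 1 to 4, and at 1093, 652, 1112 and 1049 CPM in control 1 to 4. The groups overlapped only through control 2, which lay below sorbate 1. Hspa5 fell to 581 ± 108 CPM with sorbate, against 977 ± 218 CPM in the controls (SD, n = 4 each; log2 fold change −0.75, SE 0.20, edgeR adjusted p = 0.0332). Its call held without control 2 (−0.89) or sorbate 1 and was lost without any of the other 6 libraries (−0.89 to −0.67 over the 8 leave-outs, adjusted p at most 0.105). With the surrogate variable Hspa5 had −0.40 (adjusted p = 0.225).

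The largest falls among the 35 genes were those of small luminal proteins that work beside BiP. Manf, an ER protein that is also secreted under stress (chromosome 9, 106838312 to 106891979), stood at 74.7, 43.5, 52.2 and 52.0 CPM in the sorbate libraries and at 136, 78.1, 157 and 206 CPM in the controls, with no overlap. Its log2 fold change was −1.38 (SE 0.27, edgeR adjusted p = 0.0103). The exons annotated for Manf overlap those of Rbm15b on the same strand and of Dcaf1 on the opposite strand, and those of Pdia3, Pdia6, Syvn1 and Derl2 overlap protein-coding genes of the opposite strand. Exons of Hsp90b1, Sil1, Dnajb9, Pdia4 and Eif2ak3 overlap noncoding, microRNA or unclassified genes. How such reads were assigned is not known, so these counts are uncertain to that extent. Sdf2l1, a partner of the J protein Dnajb11 (chromosome 16, 17130138 to 17132383), stood at 19.8, 8.53, 17.1 and 17.6 CPM with sorbate, against 34.999, 31.2, 36.6 and 54.0 CPM in the controls. The groups did not overlap, control 2 included, and the log2 fold change was −1.31 (SE 0.25, edgeR adjusted p = 0.00973). Creld2, an ER-resident protein induced by ER stress (chromosome 15, 88819646 to 88826683), stood at 33.9, 19.2, 21.1 and 29.4 CPM in sorbate libraries and at 77.3, 28.9, 71.2 and 85.1 CPM in controls. Control 2 lay among the sorbate libraries, whereas the other controls were above them all. Creld2 fell by 1.34 on the log2 scale (SE 0.30, edgeR adjusted p = 0.0191), a call kept without control 2 (−1.58) or sorbate 1, lost without any of the other 6 libraries (−1.58 to −1.19, adjusted p at most 0.0601) and also lost with the surrogate variable (−0.62, adjusted p = 0.158).

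Hspa13, a microsomal Hsp70-like protein (chromosome 16, 75745431 to 75767104), stood at 31.3, 27.8, 20.8 and 23.4 CPM with sorbate, against 44.8, 38.5, 62.0 and 49.2 CPM in the controls. The groups did not overlap, and the log2 fold change was −0.91 (SE 0.17, edgeR adjusted p = 0.00863). Manf, Sdf2l1 and Hspa13 kept their calls without any 1 of the 8 libraries, and Sdf2l1 and Hspa13 also with the surrogate variable (−1.19 and −0.71), where Manf had −0.87 (adjusted p = 0.0622). Hsp90b1, the ER form of Hsp90, stood just outside the threshold. It had 694, 588, 651 and 680.2 CPM in sorbate libraries and 802, 793, 948 and 1058 CPM in controls, without overlap (log2 fold change −0.46, SE 0.14, edgeR adjusted p = 0.0506). Hyou1, which recharges BiP with ATP by nucleotide exchange, ran from 76.7 to 136 CPM with sorbate and from 91.6 to 224 CPM in controls (−0.78, SE 0.27, adjusted p = 0.0832). Sil1, another exchange factor of BiP, stood at 39.8 ± 2.05 CPM with sorbate and 40.4 ± 3.33 CPM in controls (SD, n = 4 each; −0.02, SE 0.10).

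**Figure D4:**
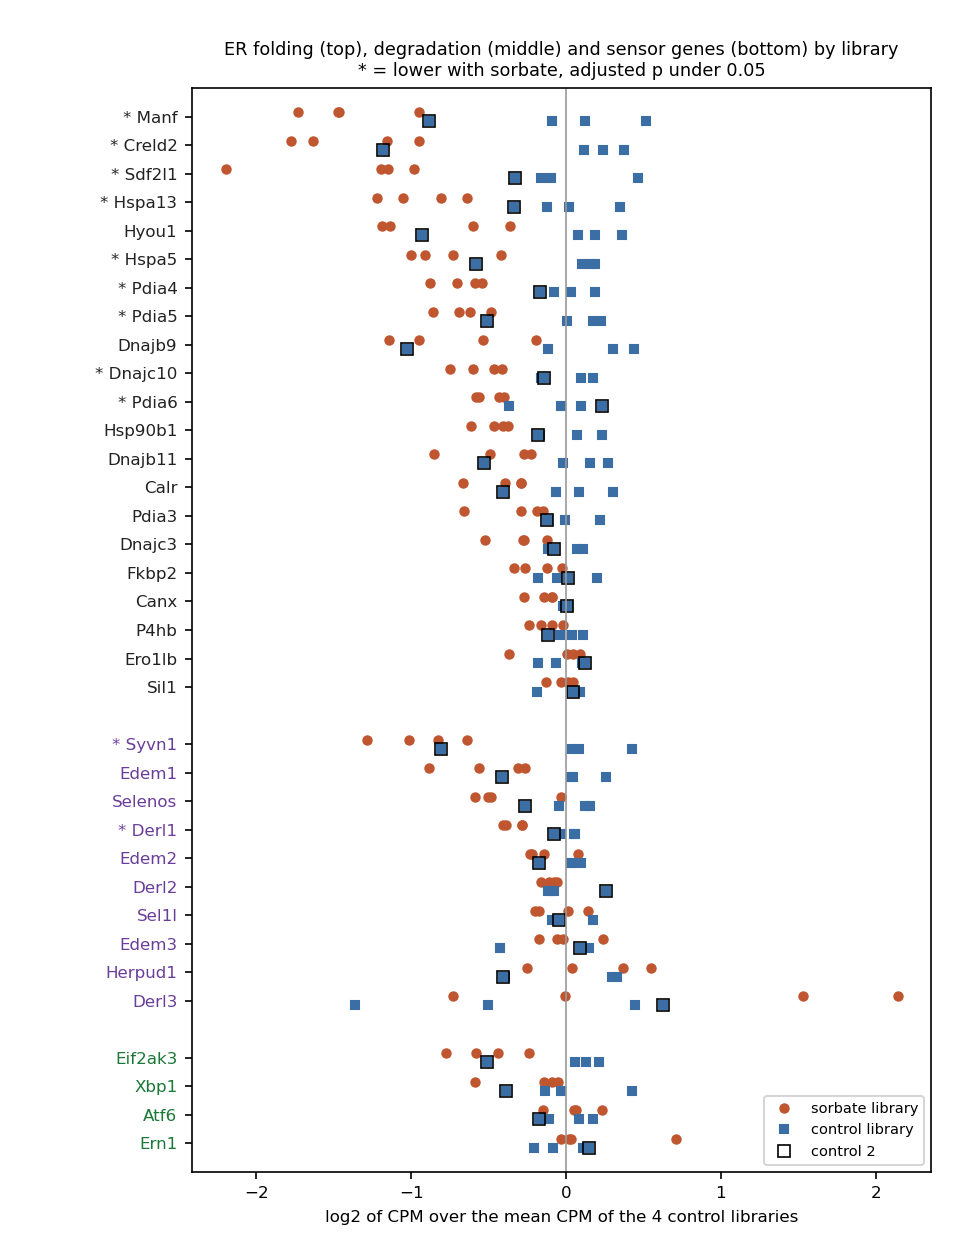
Each gene's CPM in the 4 sorbate (circles) and 4 control libraries (squares), as log2 of the ratio to the mean of the controls, with control 2 outlined in black. Names of folding genes are black, of degradation genes purple and of sensor genes green, and asterisks mark the 11 genes that fell. The sorbate circles of Manf, Sdf2l1, Hspa13 and Pdia4 all lie left of their control squares.

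J proteins hand unfolded chains to BiP and switch on its ATPase. Of the 4 measured, Dnajc10, which also reduces disulfides on chains bound for degradation, fell. It stood at 23.7, 24.6, 19.5 and 21.6 CPM with sorbate, against 29.4, 29.7, 35.1 and 37.0 CPM in controls, with no overlap (log2 fold change −0.55, SE 0.12, edgeR adjusted p = 0.0157). Its call was lost without sorbate 3, sorbate 4 or control 3 (−0.60 to −0.49 over all 8 leave-outs, adjusted p up to 0.056). The surrogate-variable fit gave −0.46 (adjusted p = 0.077). The other J proteins did not pass the test, with log2 fold changes of −0.66 for Dnajb9 (SE 0.30), −0.44 for Dnajb11 (SE 0.19) and −0.29 for Dnajc3 (SE 0.12). Dnajb9 is a classical XBP1 target, and its values of 57.5, 34.0, 29.7 and 45.3 CPM with sorbate stood on both sides of the 32.2 CPM of control 2 and below the 60.4 to 89.0 CPM of the other controls.

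The lectin chaperones, which hold glycoproteins by their sugar chains, did not pass the test. Calr, the soluble one, stood at 568 ± 66.1 CPM with sorbate and 751 ± 151 CPM in controls (SD, n = 4 each; log2 fold change −0.40, SE 0.17, adjusted p = 0.135). Without control 2 Calr was called lower (−0.51, edgeR adjusted p = 0.0164), and limma-voom with quality weights also called it. Canx, its membrane-bound relative, was the most even of the folding genes in the controls, at 318, 323, 324 and 322 CPM, and stood at 302, 267, 292 and 303 CPM in the sorbate libraries. Those values do not overlap, but the log2 fold change was only −0.15 (SE 0.10, edgeR adjusted p = 0.366).

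Of the 7 enzymes that make disulfides or turn prolyl bonds, 3 disulfide isomerases fell. Pdia4 (chromosome 6, 47796141 to 47813430) stood at 136, 108, 121 and 132 CPM with sorbate, against 202, 176, 188 and 225 CPM in controls. Its groups did not overlap, and the log2 fold change of −0.67 (SE 0.12, edgeR adjusted p = 0.00723) was called without any 1 library and with the surrogate variable (−0.58). Pdia5 fell to 46.5 ± 5.02 CPM with sorbate, against 73.3 ± 15.5 CPM in controls (SD, n = 4 each; −0.66, SE 0.16, edgeR adjusted p = 0.0253), with control 2 at 51.3 CPM inside the sorbate range. Control 2 was not low for Pdia6. Its values were 265, 242, 271 and 239 CPM with sorbate and 277, 419, 349.9 and 383 CPM in controls, so that control 2 was the highest control (−0.49, SE 0.14, edgeR adjusted p = 0.0441). The call of Pdia5 was kept without control 2 (−0.78) or sorbate 4 and that of Pdia6 without control 1 (−0.59) or control 2 (−0.39), and each was lost without any of the other 6 libraries (adjusted p up to 0.0724 and 0.125). In the surrogate-variable fit Pdia5 had −0.36 (adjusted p = 0.186) and Pdia6 −0.65 (adjusted p = 0.0208). P4hb, the archetypal disulfide isomerase, was the most abundant of the 35 genes per exon length, at 421 ± 26.96 RPKM (CPM per kilobase of exon) with sorbate and 459 ± 31.2 RPKM in controls (SD, n = 4 each). It did not pass the test (log2 fold change −0.13, SE 0.12, adjusted p = 0.528), and neither did Pdia3 (−0.31, SE 0.14), the oxidase Ero1lb (−0.04, SE 0.13) or the prolyl isomerase Fkbp2 (−0.18, SE 0.11).

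Of the 10 degradation genes 2 fell, Syvn1 and Derl1. Syvn1 encodes the ubiquitin ligase HRD1, through which misfolded chains leave the ER (chromosome 19, 6046576 to 6053712). It stood at 61.6, 39.3, 47.5 and 54.1 CPM in sorbate libraries and at 129, 54.6, 101 and 98.4 CPM in controls. Control 2 lay among the sorbate libraries, below sorbate 1, and the other controls lay above all 4 of them (log2 fold change −0.92, SE 0.23, edgeR adjusted p = 0.0291). Its partner Sel1l, which holds HRD1 in place, stood at 119 ± 13.6 CPM with sorbate and 123 ± 10.5 CPM in controls (SD, n = 4 each; −0.05, SE 0.11). Derl1, a channel protein of the same machinery, stood at 118, 108, 109 and 118 CPM with sorbate, against 149, 135, 148 and 139.7 CPM in controls. The shift was small and the groups did not overlap (−0.34, SE 0.09, edgeR adjusted p = 0.0396). The call of Syvn1 was kept without control 2 (−1.10) or sorbate 1 and lost without any of the other 6 libraries (−1.10 to −0.75, adjusted p at most 0.082), and that of Derl1 was kept only without control 2 (−0.36 to −0.32, adjusted p up to 0.118). In the surrogate-variable fit Syvn1 had −0.42 (adjusted p = 0.242) and Derl1 −0.30 (adjusted p = 0.159).

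The remaining 8 degradation genes did not pass the test. Edem1, a mannosidase-like protein that marks chains for removal, stood at −0.49 on the log2 scale (SE 0.17, adjusted p = 0.0895), while its relatives Edem2 and Edem3 had −0.12 (SE 0.11) and 0.01 (SE 0.14). Selenos, a selenoprotein that recruits the extracting ATPase p97, had −0.39 (SE 0.15, adjusted p = 0.108), and Derl2 had −0.10 (SE 0.11). Herpud1, a scaffold of the HRD1 complex, is commonly used as a marker of ER stress. It stood at 431, 343, 279.99 and 489 CPM with sorbate and at 420.1, 252, 410.3 and 254 CPM in controls. Both groups spread widely and overlapped (0.21, SE 0.22, adjusted p = 0.572). Derl3, a relative of Derl1, was the least abundant of the 35 genes per exon length in controls (2.14 RPKM with sorbate, 0.962 RPKM in controls), at 1.91, 1.16, 8.46 and 5.54 CPM with sorbate and 0.747, 2.96, 1.35 and 2.61 CPM in controls (1.15, SE 0.61, adjusted p = 0.233).

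None of the 4 sensor and transducer genes passed the test, and at an unadjusted p under 0.05 only Eif2ak3 did. DESeq2 called 0 of the 4 and limma-voom with quality weights 1, and edgeR without control 2 also called Eif2ak3. Limma-voom gave control 2 the lowest weight, so these are not separate checks. Eif2ak3, which encodes PERK, stood at 13.2, 11.5, 9.10 and 10.4 CPM with sorbate and at 17.1, 10.9, 18.1 and 16.2 CPM in controls, with control 2 inside the sorbate range (log2 fold change −0.50, SE 0.17, adjusted p = 0.086; −0.62 without control 2). Xbp1 stood at 359, 265, 372 and 383 CPM with sorbate and at 535, 304, 389 and 362 CPM in controls (−0.21, SE 0.19, adjusted p = 0.49). Gene counts do not separate its spliced from its unspliced mRNA, so the activity of IRE1 was not measured. Atf6 stood at 82.4 ± 8.86 CPM with sorbate and 79.3 ± 9.01 CPM in controls, and Ern1, which encodes IRE1, at 72.6 ± 19.9 CPM with sorbate and 62.4 ± 7.23 CPM in controls (SD, n = 4 each; 0.06, SE 0.12, and 0.22, SE 0.17).

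Genes that act around the 35 in the same organelle were counted in 6 further lists, also chosen with earlier results of these data known. Of 24 genes of translocation into the ER and signal peptide cleavage, 10 fell and 0 rose, with a median log2 fold change of −0.43. Spcs2, a subunit of the signal peptidase, fell to 56.2 ± 5.57 CPM with sorbate, against 116 ± 22.5 CPM in controls (SD, n = 4 each; −1.05, SE 0.15, edgeR adjusted p = 0.00281). The translocon subunit Sec61b (−0.73, SE 0.11) and Srp19 of the signal recognition particle (−0.73, SE 0.15) also fell. Of 16 genes of N-glycosylation and glycan trimming 5 fell and 0 rose (median −0.23), led by the oligosaccharyltransferase genes Ostc (−1.02, SE 0.18), Ost4 (−0.72, SE 0.15) and Rpn1 (−0.64, SE 0.14). At an unadjusted p under 0.05, 17 translocation and 8 glycosylation genes were lower and 0 higher, against 15.3% lower and 14.2% higher among all genes. DESeq2 and limma-voom called 0 genes of these lists higher. Both counts moved with single libraries, as did the share of all genes called lower, from 2.64% without control 3 to 14.1% without control 2. Translocation genes called lower numbered 14 without control 2, 9 without control 1, 7 without sorbate 1, 5 without sorbate 2 or control 4, and 3 without sorbate 3, sorbate 4 or control 3. Glycosylation genes called lower numbered 5 without control 2, 2 without sorbate 4 or control 3, and 3 without any other library.

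Among 23 further folding enzymes tested 2 fell (8.7%, against 6.3% of all genes), Erp29 and the prolyl isomerase Ppib, and 0 rose (median −0.19). Of 21 further degradation genes 2 fell (9.52%), Selenok and Ube2g2, and 0 rose (median −0.01). Both shares are near that of all genes tested. At an unadjusted p under 0.05, 6 folding enzymes and 4 degradation genes were lower and 1 of each list higher. Among all genes 15.3% were lower and 14.2% higher. In each list DESeq2 called 0 higher and limma-voom 1. Lower were 3 and 2 by DESeq2 and 6 and 5 by limma-voom, against 8.21% and 14.6% of all genes. Without control 2 the counts lower were 5 for folding enzymes and 4 for degradation genes, with 14.1% of all genes called lower. Without control 3 they were 0 and 1, with 2.64% of all genes called lower. Of 22 genes of ER exit and retrieval 4 fell (18.2%) and 1 rose (4.55%), against 6.3% and 6.14% of all genes tested (median −0.08). Among those that fell were Tmed9 (−0.68, SE 0.14) and Sec13 (−0.56, SE 0.11). The gene that rose was Mia3, which loads bulky cargo into transport vesicles, at 156 ± 14.9 CPM with sorbate against 99.8 ± 8.58 CPM in controls (SD, n = 4 each; 0.65, SE 0.11, edgeR adjusted p = 0.00622).

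**Figure D5:**
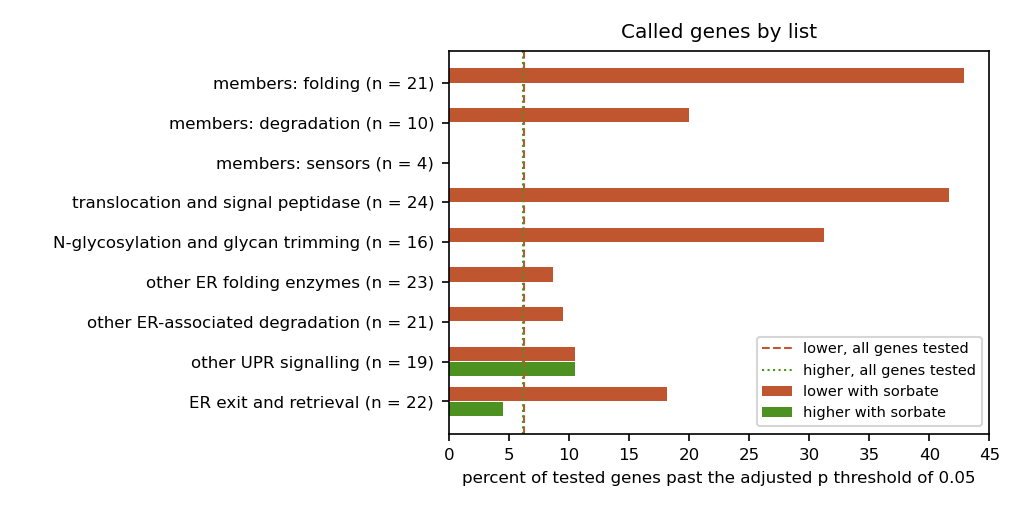
Percent of tested genes called lower (orange) or higher (green) with sorbate in the 3 arms and 6 further lists, with the percent over all genes tested as vertical lines. Folding genes (9 of 21), translocation genes (10 of 24) and glycosylation genes (5 of 16) have the longest orange bars.

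Of 19 other signalling genes of the unfolded protein response 2 rose and 2 fell (10.5% each), near the 6.14% and 6.3% of all genes tested. Ppp1r15b, a subunit of the phosphatase that reverses the PERK signal, rose by 0.61 (SE 0.12, edgeR adjusted p = 0.0114), and Creb3l3, a liver transcription factor released from the ER membrane, rose by 0.53 (SE 0.13). Creb3l2 fell to 19.02 ± 1.52 CPM with sorbate, against 45.6 ± 17.9 CPM in controls (SD, n = 4 each; −1.26, SE 0.25, edgeR adjusted p = 0.0104). Atf6b, a relative of Atf6, had −0.45 (SE 0.13, adjusted p = 0.045). The genes downstream of PERK did not pass the test. Log2 fold changes were −0.34 for Atf4 (SE 0.15), −0.46 for Ddit3 (SE 0.28), which encodes CHOP, 0.25 for Ppp1r15a (SE 0.15), 1.02 for Trib3 (SE 0.39, adjusted p = 0.109) and −0.70 for Chac1 (SE 0.35).

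Summed markers of several other cell types were also lower with sorbate, and most of these sums were low in control 2. Of 8 plasma cell markers, a cell type rich in ER chaperones, summed CPM ran from 5.6 to 15.6 with sorbate and from 16.4 to 24.6 in controls, with Tnfrsf17 at 0 in every library and 1 of the 4 markers tested called lower. The sum is mostly Ighm, with 464 counts over the sorbate and 1158 over the control libraries. Igha, Mzb1, Ighg2c and Igkc also had fewer counts, 79, 3, 4 and 153 with sorbate and 122, 14, 14 and 178 in controls. Jchain and Ighg2b had more, 86 and 51 counts with sorbate and 68 and 39 counts in controls. Markers of the bile duct summed to 27.6 to 42.4 CPM with sorbate, against 52.0 CPM in control 2 and 123 to 248 CPM in the other controls. That sum is mostly Spp1, with 2692 counts over the sorbate and 11096 over the control libraries. Sox9 and Cftr also had fewer counts, 153 and 5 with sorbate and 412 and 8 in controls. Krt19, Krt7 and Epcam had more, 126, 67 and 70 counts with sorbate and 54, 38 and 61 counts in controls. Of the 4 bile duct markers tested 2 were called lower and 0 higher. Kupffer cell markers summed to 117 to 230.5 CPM with sorbate, against 163 CPM in control 2 and 302 to 401 CPM in the other controls, and 3 of 6 were called lower. Neutrophil markers summed to 0.137 to 1.11 CPM with sorbate, against 0.838 CPM in control 2 and 11.7 to 21.1 CPM in the other controls. Only 1 of these 6 markers could be tested, and it was called lower. Sinusoidal endothelial markers summed to 110.4 to 132 CPM with sorbate, against 107 CPM in control 2 and 200.02 to 224 CPM in the other controls, and 1 of 6 was called lower. Stellate cell markers summed to 124 to 196 CPM with sorbate and 122 to 167 CPM in controls. Of 6 pancreatic acinar markers 4 were at 0 in every library. Hepatocyte markers summed to 75848 to 99642 CPM with sorbate and 64833 to 80907 CPM in controls, a sum that is mostly Alb. Of the 6 hepatocyte markers 1 was called higher and 0 lower. The part of these cell types in the folding gene results was not tested. The summed CPM of the 21 folding genes was 4219 to 5248 with sorbate and 5418 to 7165 in controls.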

How the data were processed

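The deposited table holds raw counts, whole numbers of reads per Ensembl gene, deposited by the authors without normalization, judging by the values. HISAT2 2.1.0, Subread, FastQC and edgeR are named per the submitters' processing notes, as is the build GRCm38. For the annotation release and strandedness of counting, the answer is not given in the sources used here. Columns were tied to samples by library number, which left 4 per-sample columns unmatched and unused. No batch or pairing is labelled. Whether the libraries of a group come from separate mice is not stated, so p-values measure only the spread between libraries, which may be technical.

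Genes were filtered with filterByExpr (count minimum of 10), scaled by TMM and tested two-sided in edgeR 4.0.16 under R 4.3.3 with the quasi-likelihood method, and p-values were adjusted after Benjamini and Hochberg over the 13312 genes tested. Alternatives used DESeq2 1.42.0, limma 3.58.1 and sva 3.50.0. Levels per length use the merged exons of GENCODE release M21 (GRCm38), which also gives gene coordinates. All 35 members are named, and from the 6 further lists up to 3 called genes each with the lowest p. Named beside these are Atf6b, the remaining called signalling gene, and Atf4, Ddit3, Ppp1r15a, Trib3 and Chac1 whatever their values. The members and lists were chosen with earlier results of these data known.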

Additional observations from a re-analysis of the deposited data

Results flagged for a closer look

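In groups of 4 libraries, 1 library far from the other 3 was looked for in each of the 35 genes and both groups on the log2 CPM scale (Dixon's 95% criterion, the gap to the nearest library over the whole range). It was met in 7 of 70 groups. These groups share the same 8 libraries and are not independent, so this count cannot be judged against a chance rate. Control 2 was low for Hspa5, at 652 CPM against 1049 to 1112 CPM in the other controls, and for Creld2, at 28.9 CPM against 71.2 to 85.1 CPM. Control 2 was high for Derl2, at 99.1 CPM against 76.3 to 78.5 CPM in the other controls. Control 4 was low for Edem3, at 30.1 CPM against 43.0 to 44.7 CPM, and control 1 was high for Sel1l, at 139 CPM against 116 to 119 CPM. Sorbate 2 was low for Xbp1, at 265 CPM against 359 to 383 CPM in the other sorbate libraries. Sorbate 4 was high for Ern1, at 102 CPM against 60.9 to 63.8 CPM, and without it the log2 fold change of Ern1 was 0.01 in place of 0.22.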

How the results depend on the processing

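The count of 11 members called lower was 11 with DESeq2 size factors, 9 with library size alone, 10 with no filter on low counts, 13 with DESeq2 and 15 at a threshold of 0.1. It was 20 by limma-voom with quality weights, 4 with 1 surrogate variable, and 4 to 19 when 1 library was left out, and 0 members were called higher in any of these settings. Calls over the whole table moved too, with 6.3% of genes called lower as reported, 8.21% by DESeq2, 14.6% by limma-voom, 2.2% with the surrogate variable, and 2.64% to 14.1% when 1 library was left out. The members' median log2 fold change of −0.39 was −0.26 with library size alone, −0.20 with the surrogate variable, and −0.44 to −0.32 when 1 library was left out. The surrogate variable correlates with the group (0.588) and is therefore partly confounded with it. Sdf2l1, Hspa13 and Pdia4 were called in every setting listed here. Hsp90b1, Hyou1, Dnajb9, Dnajb11, Calr, Edem1, Selenos and Eif2ak3 did not pass as reported. Each of them was called lower both without control 2 and by limma-voom. These are not separate checks, because limma-voom gave control 2 a quality weight of 0.309, against 0.81 to 1.93 in the other libraries. DESeq2 also called Hsp90b1 and Hyou1. In the further lists the calls lower ran over the same settings from 2 to 16 for translocation, 2 to 7 for glycosylation, 0 to 6 for other folding enzymes, 0 to 5 for other degradation genes, 1 to 6 for other signalling genes and 0 to 6 for ER exit. The calls higher ran from 1 to 5 for other signalling genes and from 1 to 3 for ER exit, and from 0 to 1 for other folding and for other degradation genes. Derl3 rested on few reads. The small difference of Canx (−0.15, SE 0.10) did not pass the test, and how small a shift 4 libraries a group can detect was not tested.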
